A study of Drosophila melanogaster with 6 samples.

Results

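The mitochondrial respiratory chain was examined in sorted cells of TinD-GFP Drosophila embryos. Its subunits were found by gene symbol, as genes whose symbol begins with ND-, COX, ATPsyn or UQCR- or is one of the Sdh genes A to D. The array held 63 such genes of 10844 genes in all, each read from its brightest probe set. Of the 63, 14 carry a symbol ending in L, L1 or L2 and are duplicates, described here as testis-type, and they were kept apart from the other 49, which are called core subunits. ND-MNLL was counted as a core subunit, because its last letter belongs to a residue name and does not mark a duplicate. The reference gene table holds 84 nuclear genes that meet the symbol rule, and those beyond the 63 are not analysed here.

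RNA was measured on Affymetrix Drosophila Genome 1 arrays, 3 for GFP-positive and 3 for GFP-negative cells. All 6 samples came from dissociated TinD-GFP embryos between late stage 11 and early stage 12. The reporter insertion, which both groups carry, marks cardiac mesoderm per the labels, and GFP-negative cells are the remaining cells of the same kind of embryo. The labels do not say that replicates came from separate collections or sorts, so the spread behind each p-value could be technical.

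The respiratory chain carries electrons from NADH and succinate to oxygen and uses the energy to pump protons across the inner mitochondrial membrane. Complex I takes electrons from NADH and complex II from succinate, complex III passes them to cytochrome c, complex IV reduces oxygen, and complex V, the ATP synthase, makes ATP from the proton gradient. Most subunits are encoded in the nucleus and a few catalytic ones in mitochondrial DNA. In Drosophila many nuclear subunit genes have a second copy that is expressed mainly in the testis.

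Log2 signals were compared as GFP-positive minus GFP-negative with limma, and a gene was called where the p-value adjusted over all 13966 probe sets was under 0.05. Of the 49 core subunits, 8 were called lower and 0 higher. Over all probe sets 0.895% were called lower and 1.54% higher, and among probe sets with a mean log2 signal above 6 these shares were 3.79% and 5.86%. The spread between arrays falls with the level, so the second pair of shares is the nearer background for these brightly measured genes. The variance model decides these calls: it was chosen with earlier results known, and with a single prior variance limma called 0 of 13966 probe sets, the smallest adjusted p among core subunits was 0.268, and 11 of the 49 had an unadjusted p under 0.05, as did 1482 of all 13966 probe sets and 487 of the 2903 with a mean above 6. Leaving out 1 array at a time left between 2 and 6 core subunits called, with ND-B17.2 and UQCR-Q called each time.

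Of the 49, 47 had a mean above the background level of 2.44, which is the mean of the brightest control from another organism. The median log2 difference over the 49 was -0.20, and 43 of the 49 values were below 0. For all probe sets the median was -0.01, with 51.5% below 0. For probe sets with a mean above 6 it was -0.02, with 54.6% below 0. In 28 core subunits each GFP-positive array lay below each GFP-negative array, and in 1 each lay above. Over all probe sets 10.2% showed the first pattern and 9.47% the second, and among those with a mean above 6 the shares were 22% and 18.4%. The first share was higher among short genes, and it is given with gene span further on. In cells sorted as a bulk, a lower share of cells rich in a transcript and less of it per cell cannot be told apart.

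**Figure D1:**
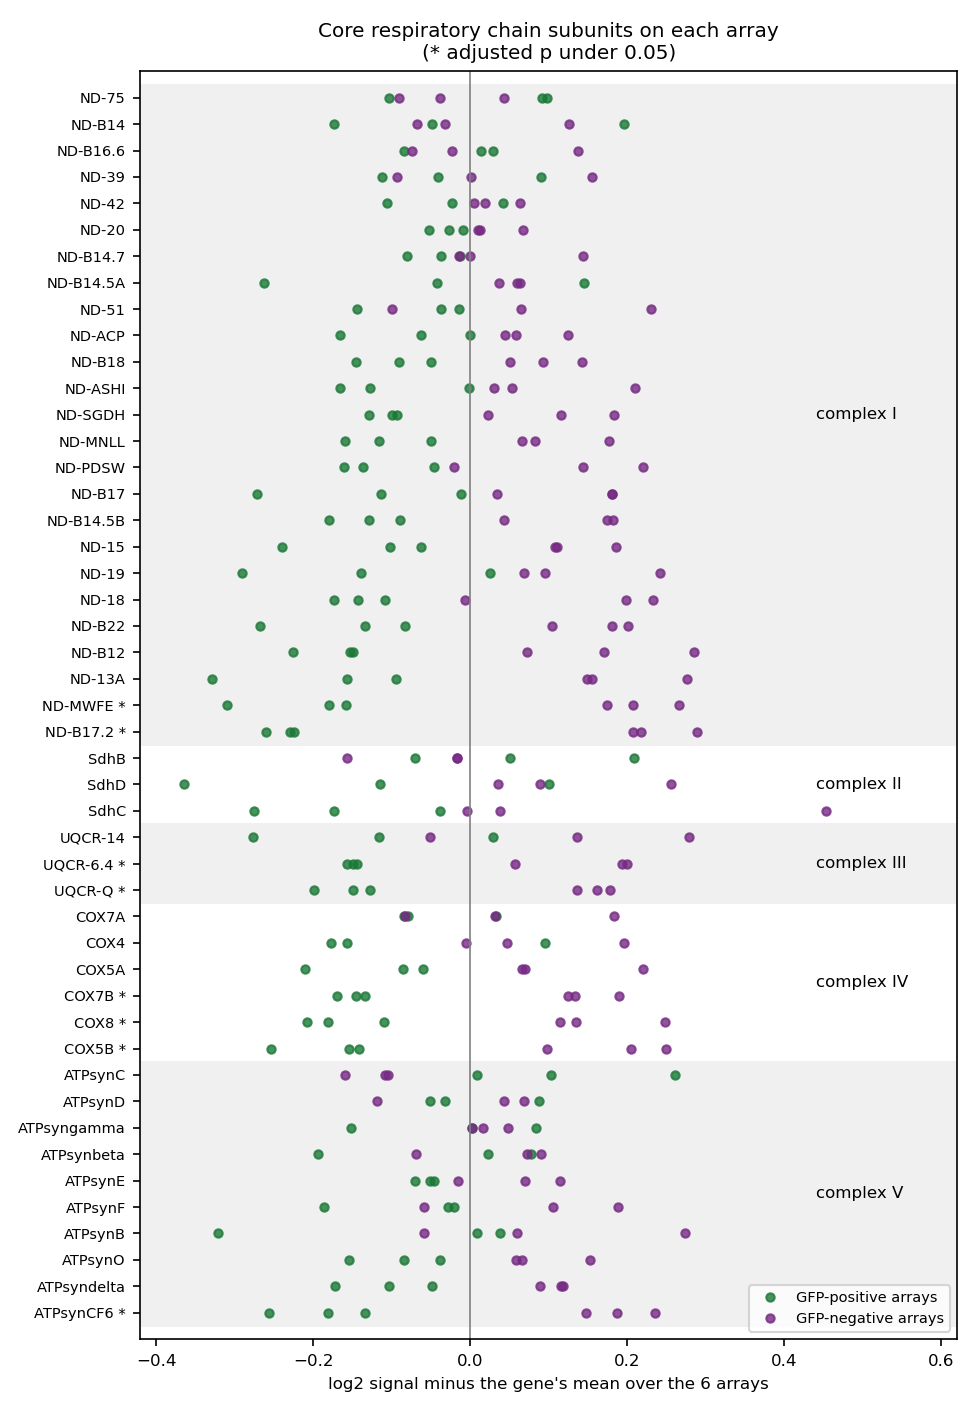
Log2 signal of each core subunit above background on each of the 6 arrays, as the difference from that gene's mean over the arrays (x axis), with genes grouped by complex (y axis) and an asterisk on the 8 called genes. Points of GFP-positive arrays lie to the left of those of GFP-negative arrays without overlap in 28 genes, and to the right in ATPsynC alone.

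Each array showed the shift in the 47 core subunits above background. The median deviation of these genes from their own means was -0.11, -0.14 and -0.05 on GFP-positive replicates 1 to 3. It was 0.12, 0.06 and 0.11 on GFP-negative replicates 1 to 3. Over all probe sets with a mean above 6 the same medians lay between -0.0075 and 0.012.

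In complex I, NADH:ubiquinone oxidoreductase, 24 of 26 core subunits had a log2 difference below 0, with a median of -0.21, and 2 were called lower. Beside the counts of this and the following complexes stands the 3.79% called lower among probe sets with a mean above 6. ND-B17.2, an accessory subunit of the NADH-binding arm, had log2 signals of 7.21, 7.21 and 7.18 on the GFP-positive arrays and 7.65, 7.64 and 7.73 on the GFP-negative arrays. On the linear scale it fell by 28.1%, and the log2 difference was -0.48 ± 0.06 (SE, n = 3 per group, limma adjusted p = 0.0072). ND-MWFE, a small membrane subunit, had log2 signals of 8.36, 8.38 and 8.23 against 8.71, 8.74 and 8.80. It fell by 0.43 ± 0.06 (limma adjusted p = 0.010). In both genes all GFP-positive arrays were the low ones, and the gap between the groups exceeded the range within either.

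The other subunits of complex I were not called. ND-13A, ND-B22 and ND-B12 lay just outside the threshold, with log2 differences of -0.39, -0.32 and -0.35 and limma adjusted p of 0.053, 0.054 and 0.060. The distal membrane arm, one of the proton-pumping parts of the complex, was measured by ND-B12, ND-B17, ND-B18, ND-B22, ND-ASHI, ND-PDSW, ND-SGDH and ND-MNLL. All 8 had GFP-positive arrays below GFP-negative arrays without overlap, with log2 differences from -0.35 to -0.19, and 0 of the 8 were called. This grouping was made after the values were seen, and 22% of all probe sets with a mean above 6 show the same order without overlap. In span bins 1, 2 and 3, described further on, 33.5%, 31.6% and 23.9% of other genes do. The arm's median of -0.22 lay near the -0.21 of the 25 complex I core subunits above background, of which 17 showed this order. ND-18, ND-19, ND-B14.5B, ND-15 and ND-ACP, outside the arm, were among the 17, with log2 differences of -0.28, -0.27, -0.27, -0.27 and -0.15. With the span curves, also described further on, the median of the arm went to -0.12 and -0.088. ND-MNLL has another probe set, where the log2 difference was -0.08 against -0.22 in the one used.

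Other subunits of complex I differed less, among them both catalytic and accessory ones. ND-75, which carries iron-sulfur clusters of the NADH-binding arm, had log2 signals of 6.87, 7.07 and 7.07 on the GFP-positive arrays against 6.89, 7.02 and 6.94 on the GFP-negative ones. Its groups overlapped, and the log2 difference was 0.06 ± 0.08 (SE). ND-51, the flavoprotein that accepts electrons from NADH, differed by -0.13 ± 0.09, and ND-20, an iron-sulfur subunit near the ubiquinone site, by -0.06 ± 0.06. ND-B16.6, an accessory subunit and the counterpart of mammalian GRIM-19, differed by -0.03 ± 0.07. The accessory subunits ND-B14, ND-39, ND-42, ND-B14.7 and ND-B14.5A differed by -0.02, -0.04, -0.06, -0.09 and -0.11, with overlapping groups. ND-B8, an accessory subunit, had means of 2.46 and 2.00 in GFP-positive and GFP-negative cells, close to or below the background level, so its direction is not given.

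Complex II, succinate dehydrogenase, also belongs to the citric acid cycle, and 3 of its subunits were measured. None was called. The membrane anchor subunits SdhC and SdhD had log2 differences of -0.33 ± 0.14 and -0.25 ± 0.13 (SE), and the iron-sulfur subunit SdhB had 0.13 ± 0.09. For SdhC the signals were 6.03, 5.93 and 6.17 on the GFP-positive arrays against 6.66, 6.20 and 6.24 on the GFP-negative ones. The separation was narrow, and GFP-negative replicate 1 enlarged the difference of the means without affecting that gap. The groups overlapped in SdhB and SdhD.

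Complex III, the cytochrome bc1 complex, was represented by 3 small subunits, and 2 of them were called lower. UQCR-Q had log2 signals of 10.16, 10.09 and 10.14 on the GFP-positive arrays against 10.46, 10.42 and 10.45 on the GFP-negative ones. It fell by 19.7%, with a log2 difference of -0.32 ± 0.04 (SE, limma adjusted p = 0.0066). UQCR-6.4 had 8.59, 8.58 and 8.59 against 8.93, 8.79 and 8.94 and fell by 0.30 ± 0.06 (limma adjusted p = 0.032). In both genes the gap between the groups exceeded the range within either. UQCR-14 was not called, with a log2 difference of -0.24 ± 0.10 and overlapping groups.

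In complex IV, cytochrome c oxidase, the nuclear genes measured here encode the subunits that surround the catalytic core made from mitochondrial DNA. Of 7 core genes 3 were called lower, and the 6 above background all had log2 differences below 0, with a median of -0.27. COX5B had log2 signals of 9.37, 9.47 and 9.48 on the GFP-positive arrays against 9.72, 9.87 and 9.82 on the GFP-negative ones and fell by 0.37 ± 0.06 (SE, limma adjusted p = 0.016). COX8 had 9.33, 9.26 and 9.24 against 9.69, 9.58 and 9.56 and fell by 0.33 ± 0.055 (limma adjusted p = 0.020). COX7B had 9.46, 9.43 and 9.47 against 9.79, 9.73 and 9.74 and fell by 0.30 ± 0.04 (limma adjusted p = 0.012). In each of the 3 genes the groups were separated by more than the range within either.

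COX5A had a log2 difference of -0.24 ± 0.06 without overlap of the groups and was not called (limma adjusted p = 0.107). COX4 and COX7A overlapped between groups, with -0.16 ± 0.08 and -0.09 ± 0.07. COX7C had a mean of 2.30 on the GFP-positive arrays against 1.06 on the GFP-negative ones, both below the background level, so no direction is given for it.

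In complex V, the ATP synthase, 1 of 10 core subunits was called lower, beside 3.79% of probe sets with a mean above 6. The median log2 difference of the 10 was -0.13. ATPsynCF6, coupling factor 6 of the peripheral stalk, had log2 signals of 8.19, 8.12 and 8.24 on the GFP-positive arrays against 8.56, 8.52 and 8.61 on the GFP-negative ones. It fell by 23.2%, with a log2 difference of -0.38 ± 0.06 (SE, limma adjusted p = 0.014). ATPsyndelta of the central stalk and ATPsynO, the oligomycin sensitivity protein of the peripheral stalk, lay lower without overlap, with -0.22 ± 0.06 and -0.18 ± 0.06, and were not called. The catalytic subunit ATPsynbeta and the rotor shaft ATPsyngamma differed by -0.06 ± 0.09 and -0.04 ± 0.07, with overlapping groups.

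ATPsynC, the proton-carrying ring subunit, ran the other way. Its log2 signals were 9.20, 9.29 and 9.45 on the GFP-positive arrays against 9.08, 9.03 and 9.08 on the GFP-negative ones, a difference of 0.25 ± 0.07 (SE) that was not called (limma adjusted p = 0.111). The GFP-positive arrays were all higher. Another probe set of ATPsynC, with a mean of 3.65, gave -0.19 ± 0.33 with overlapping groups, so its probe sets disagree in sign and neither was called.

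**Figure D2:**
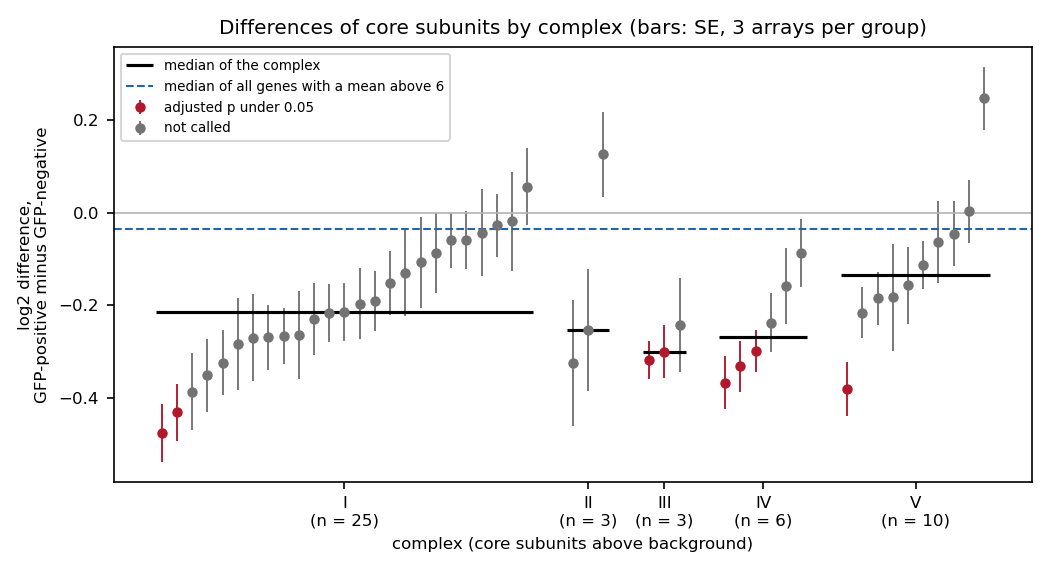
Log2 difference, GFP-positive minus GFP-negative (y axis), of each core subunit above background, ordered within complexes I to V (x axis), with bars for the SE (3 arrays per group), black lines for complex medians and a dashed line for the median of all genes with a mean above 6. The medians run from -0.30 in complex III to -0.13 in complex V, and the 8 called genes lie from -0.48 to -0.30.

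Core subunits were also read by their ancestry, a split made after the values were seen. Those with a counterpart in bacterial enzymes comprised 12 genes of complexes I, II and V, and 0 of them were called. Of probe sets with a mean above 6, 3.79% were called lower, and a count of 0 among 12 lies near that share. The median log2 difference of the 12 was -0.10. Their values ran from -0.33 in SdhC to 0.25 in ATPsynC, with SdhD at -0.25 and ATPsyndelta at -0.22. Genes outside the symbol rule, among them RFeSP (-0.41), blw (0.08) and Cyt-c1 (0.04), were not part of the split. The other 37, mostly accessory subunits, held all 8 called genes (21.6%) and had a median of -0.23, or -0.24 over the 35 above background. The difference between the medians of the 12 and the 37 was not tested. With the 2 span curves described next they were -0.048 and -0.12, and then -0.028 and -0.081, and 4 genes of the second group were called lower with each curve. The genes with a bacterial counterpart had a median annotated span of 1504 bases and the other 37 one of 1042 bases.

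Differences on these arrays moved with gene span, the length from start to end of the gene in the reference annotation, and the respiratory chain genes are short. Of the 47 core subunits above background, 18 lay in the shortest of 10 equal bins of span (177 to 1016 bases), 14 in bin 2 and 7 in bin 3, counted over genes with a mean above 4. In the shortest bin the core subunits had a median log2 difference of -0.27 and the 499 other genes one of -0.16. All 18 core subunits there were below 0, against 75.4% of the other genes, and 5 of the 18 were called lower, against 5.81% of the other genes. In bin 2 the medians were -0.19 for core subunits and -0.15 for the 503 other genes, with 1 of 14 core subunits called lower against 3.78% of the others. In bin 3 they were -0.15 and -0.13. GFP-positive arrays lay below GFP-negative arrays without overlap in 33.5%, 31.6% and 23.9% of the other genes of bins 1, 2 and 3. Spearman's rho between span and log2 difference was 0.43 across 5169 genes and 0.39 across the 47 core subunits, a description across genes, which are not independent replicates.

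After a smooth curve of each array's deviation from the gene means against span was subtracted, 4 core subunits were called lower: ND-B17.2 (-0.37 ± 0.07, SE), ND-MWFE (-0.34 ± 0.06), UQCR-Q (-0.22 ± 0.04) and ND-15 (-0.43 ± 0.08). Their limma adjusted p-values were 0.035, 0.042, 0.036 and 0.042. ND-15 has an annotated span in the longest bin and was not called without the adjustment (-0.27 ± 0.07), so its adjusted value rests on that span. The calls of UQCR-6.4, COX5B, COX7B, COX8 and ATPsynCF6 were lost, with adjusted p from 0.060 to 0.185. The median over the 49 shrank from -0.20 to -0.11, with 36 below 0. With the curve drawn only over genes with a mean above 4, which was added once the data had been seen, the median over 47 was -0.069, and ND-B17.2, ND-MWFE, ND-15 and COX5B were called lower. In that fit ATPsynC was called higher (0.29 ± 0.07, limma adjusted p = 0.031), as it was over the same genes without the curve (adjusted p = 0.032). Complex III kept a median of -0.14 over its 3 genes and complex V one of -0.0073 over 10. The part of span in the remaining differences was not tested further.

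**Figure D3:**
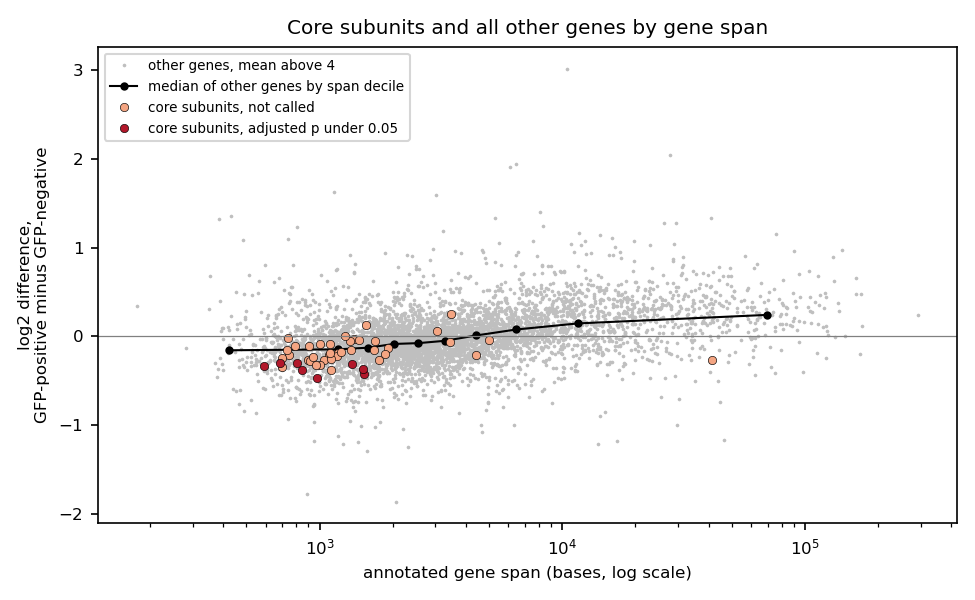
Log2 difference, GFP-positive minus GFP-negative (y axis), against annotated gene span (x axis, log scale) for genes with a mean above 4, with core subunits as large points, the 8 called ones in dark red, and the black line for the median of other genes in each bin. The line climbs from -0.16 to 0.24, and the core subunits in the shortest bin have a median of -0.27.

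RNA quality was read as a control transcript's probe set signal at the 3' end minus that at the 5' end. For actin this log2 difference was 1.22, 1.37 and 1.48 on the GFP-positive arrays and 1.27, 1.34 and 1.36 on the GFP-negative arrays. For eIF-4a it was 2.16, 2.19 and 2.13 against 2.11, 2.45 and 2.30. The groups overlapped in both, for eIF-4a through GFP-negative replicate 1 alone. The part of RNA quality in the differences, or in their trend with span, was not tested.

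Of the 14 testis-type duplicates 0 were called by limma in either direction, 0 had groups without overlap, and 0 had an unadjusted p under 0.05. Over all probe sets 0.895% were called lower and 1.54% higher, so 0 of 14 lies near those shares. Groups without overlap made up 10.2% (below) and 9.47% (above). The median SE was 0.57 in the duplicates and 0.07 in the core subunits, so a shift as small as the core median of -0.20 could not be resolved in single duplicates. The median log2 difference of the duplicates was 0.02, with 6 below 0 and 8 above. A mean above the background level was found for 6 of them, ND-20L, ND-24L, ND-51L2, ND-B14.5AL, ATPsynbetaL and ATPsynGL. ATPsynbetaL, the duplicate of the catalytic ATP synthase subunit, had log2 signals of 5.48, 5.82 and 6.01 on the GFP-positive arrays against 5.29, 5.87 and 5.38 on the GFP-negative ones. Its difference of 0.26 ± 0.19 (SE) lay within the spread between arrays (limma adjusted p = 0.611).

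Among the complex I duplicates, ND-24L had means of 3.61 and 3.69, ND-51L2 of 3.90 and 3.89, and ND-B14.5AL of 3.504 and 3.97 in GFP-positive and GFP-negative cells. ND-20L ranged from 1.85 to 4.19 on the GFP-positive arrays alone and ND-51L1 from 0.55 to 3.87, so neither shows a direction. UQCR-14L, COX4L, COX5BL, COX6AL2, COX7AL and ATPsynCF6L had means of both groups below the background level, and ATPsynepsilonL lay just below it, with 2.44 and 2.39. ATPsynGL had 2.85 and 2.46. On single arrays the highest control for another organism reached 2.58 to 3.55, so signals in that range are not firmly above background.

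**Figure D4:**
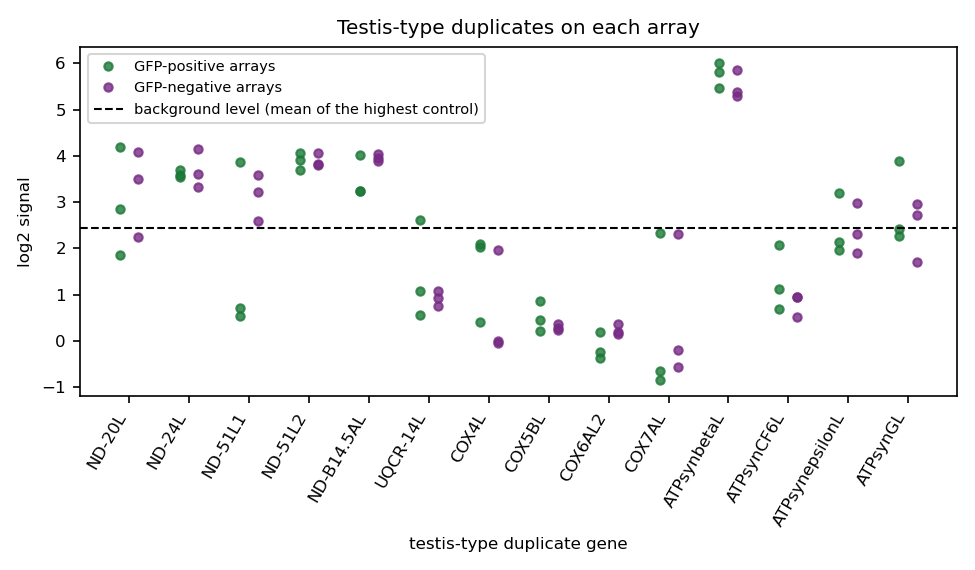
Log2 signal (y axis) of the 14 testis-type duplicates (x axis) on each GFP-positive and GFP-negative array, with the background level of 2.44 as a dashed line. ATPsynbetaL lies between 5.29 and 6.01 on all arrays, 4 complex I duplicates average between 3.12 and 3.89, and UQCR-14L, COX4L, COX5BL, COX6AL2, COX7AL and ATPsynCF6L have both group means below the line.

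Respiratory chain proteins whose symbols fall outside the rule were listed separately, and 10 of the 25 listed were measured. Of these, 2 were called lower. The small complex III subunit ox had log2 signals of 8.93, 9.004 and 9.11 on the GFP-positive arrays against 9.33, 9.31 and 9.33 on the GFP-negative ones and fell by 0.31 ± 0.06 (SE, limma adjusted p = 0.028). levy, which encodes subunit VIa of complex IV, had 9.05, 9.10 and 9.09 against 9.43, 9.32 and 9.45 and fell by 0.32 ± 0.05 (limma adjusted p = 0.018). After the span adjustment ox passed (adjusted p = 0.042) and levy did not (adjusted p = 0.098). With the curve over genes with a mean above 4 neither did, and ox went to -0.15 and levy to -0.15.

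The Rieske iron-sulfur protein gene RFeSP had a log2 difference of -0.41 ± 0.10 (limma adjusted p = 0.066), and the ATP synthase epsilon subunit gene sun -0.23 ± 0.06 (limma adjusted p = 0.075). Both had GFP-positive arrays below GFP-negative ones. The gene cype had -0.27 ± 0.08 (limma adjusted p = 0.134), also without overlap. The genes blw, ATP synthase alpha, and Cyt-c1 differed by 0.08 ± 0.09 and 0.04 ± 0.12, with overlapping groups. SdhAL, SdhBL and knon, listed with them, lay below the background level in both groups.

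Other mitochondrial gene groups gave few calls. Of 9 measured assembly factor genes of 13 listed, 0 were called (limma), with a median log2 difference of 0.04, and 1, the complex III assembly gene Bcs1, had an unadjusted p under 0.05 (0.39 ± 0.16). The copper chaperone gene Cox17 and the heme A synthesis gene Cox10 differed by -0.04 ± 0.10 and 0.04 ± 0.13. Of 10 measured genes of the citric acid cycle and pyruvate dehydrogenase of 15 listed, 0 were called, with a median of -0.13 and 1 at an unadjusted p under 0.05, the isocitrate dehydrogenase subunit gene Idh3a (-0.19 ± 0.07). The aconitase gene mAcon1 differed by 0.10 ± 0.07. Of 10 measured carrier and protein import genes of 13 listed, 0 were called, with a median of -0.09. The 1 at an unadjusted p under 0.05 was porin, the outer membrane channel (-0.17 ± 0.07), and the adenine nucleotide carrier gene sesB differed by -0.08 ± 0.06.

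Of 10 listed regulators of mitochondrial genes 6 were measured, and 1 was called. ewg encodes the Drosophila relative of mammalian nuclear respiratory factor 1 and is known for roles in neurons and flight muscle. Its log2 signals were 6.63, 6.88 and 6.64 on the GFP-positive arrays against 5.80, 5.89 and 5.62 on the GFP-negative ones. It rose by 0.94 ± 0.11 (SE), or 92.4% (limma adjusted p = 0.0050), and every GFP-positive array was higher. The span adjustment gave 0.82, with adjusted p = 0.012. TFAM, which packages mitochondrial DNA, and mtSSB, which binds it as a single strand, differed by -0.02 ± 0.08 and -0.15 ± 0.07.

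Marker genes of cell types were read beside the respiratory chain. Of 6 measured somatic muscle markers 4 were called higher, and their mean log2 level was 5.999 to 6.09 on the GFP-positive arrays against 5.16 to 5.30 on the GFP-negative ones. lmd, a factor of fusion-competent myoblasts, rose by 1.05 ± 0.08 (SE, limma adjusted p = 6.7e-04), and rols, blow and Con rose by 0.91, 0.95 and 0.97. These markers are long genes, with a median span of 57119 bases, and the span adjustment gave 1.002, 0.74, 0.88 and 0.78 for lmd, rols, blow and Con, with adjusted p of 0.0012, 0.052, 0.021 and 0.069. rols was called in 10 and Con in 11 of 18 alternatives. Of 8 hemocyte markers 2 were called higher, Ppn (0.85) and vkg (1.11), of which vkg was called in 9 of 18 alternatives, and 5 had GFP-positive arrays above GFP-negative ones and 1, gcm (-0.17), below. The mean level was 5.08 to 5.28 against 4.68 to 4.98. Of 13 listed markers of cardiac and dorsal mesoderm 12 were measured, the gene tin not among them, and 1 was called higher, Him (0.56). An unadjusted p under 0.05 was found for 5, Him and tup (0.45) higher and Doc1 (-0.21), Doc2 (-0.42) and Doc3 (-0.36) lower. In 4 of the 12, pnr (-0.29) and these Doc genes, GFP-positive arrays lay below GFP-negative ones without overlap, and in 2, Him and tup, above. The mean levels of 4.60 to 4.92 and 4.24 to 4.89 overlapped. Which cells of either group gave these signals was not measured. The heart factor gene Hand had means of 2.49 and 1.10, the latter below the background level. Of 5 neuron, 5 epidermis and 4 midgut markers 0 were called by limma, with 1, 2 and 1 at an unadjusted p under 0.05 and median log2 differences of 0.21, 0.26 and -0.30. Over all probe sets 1.54% were called higher, and 9.47% had GFP-positive arrays above GFP-negative ones and 10.2% below, without overlap. Among those with a mean above 6 these shares were 5.86%, 18.4% and 22%. For counts at an unadjusted p under 0.05 in the main fit no share over all probe sets is given. Those counts of the gene lists have no background beside them. The neuron, epidermis and hemocyte markers are long too, with median spans of 32941, 19464 and 11860 bases. Other genes in bins 9 and 10 had median log2 differences of 0.14 and 0.24. The part of these cell types in the respiratory chain differences was not tested.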

How the data were processed

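The deposited values are log2 signals, 1 for each probe set on each array. They were made with affy, per the submitters' processing notes. Its background, scaling and summary settings were not given in the sources used here. Base 2 was inferred: the highest value, 12.9, then stays under the 16-bit scanner limit of 65535. No further scaling was applied. Array medians lay between 3.71 and 3.73. The number of arrays limits the precision.

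After 44 control probe sets were left out, 13966 entered a 2-sided limma fit (version 3.58.1, R 4.3.3; eBayes with trend and robust, Benjamini-Hochberg over all). Genes were named from the platform annotation, and only from probe sets with 1 gene (12443). Gene spans came from the reference gene table (Release 6). The fit was tested on simulated data. Members, lists, tests and the naming rule (every called member and duplicate, the extremes of each complex, called genes of other lists or their 2 brightest) were chosen with earlier results of these data known. Alternatives covered normalization, variance model, filters, pseudocount, span, probe set choice, replicate block and leaving out each array.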

Additional observations from a re-analysis of the deposited data

How the results depend on the processing

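The direction of all 8 called subunits held under the 18 alternatives run. With a single prior variance 0 core subunits were called, and 0 probe sets lower and 0 higher. Leaving out the dimmest 40% of probe sets gave 13 core subunits lower, and 266 probe sets lower and 389 higher. The span adjustment gave 4 core subunits lower, 48 probe sets lower and 94 higher, with medians of -0.11 for all core subunits and -0.11, -0.21, -0.13 and -0.049 for complexes I, III, IV and V. Genes with a mean above 4 without adjustment gave 15 core subunits lower and 1 higher, 303 probe sets lower and 392 higher, and a duplicate value of 0.26 from 1 gene. With the span curve over those genes 4 core subunits were lower and 1 higher, with medians of -0.069 for all core subunits, -0.069, -0.10, -0.14, -0.11 and -0.0073 for complexes I to V and 0.34 for the 1 duplicate. These counts rest in part on fewer genes tested.

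Leaving out 1 array left 2 to 6 core subunits called lower, 32 to 59 probe sets lower and 68 to 130 higher. Of the 8, 3 stayed called without GFP-positive replicate 1 and 3 without replicate 2 (ND-B17.2, ND-MWFE and UQCR-Q), and 5 without replicate 3. Without GFP-negative replicate 3 only ND-B17.2 and UQCR-Q of the 8 stayed called. The core median ranged from -0.22 to -0.17. The medians of complexes I to V ranged from -0.23 to -0.17, -0.30 to -0.13, -0.33 to -0.28, -0.27 to -0.19 and -0.15 to -0.087, and that of the duplicates from -0.11 to 0.24.

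Some genes that were not called changed sign. With the 2 span curves ND-B16.6 went to 0.067 and 0.11, COX7A to 0.020 and 0.065 and Cox17 to 0.045 and 0.12. ND-24L went to 0.016 with the first curve and ATPsynE to 0.051 with the second. ND-51L2 went to -0.0061 with quantile normalization and -0.020 with array weights. Leaving out 1 array gave ranges of -0.071 to 0.035 in ND-B16.6, -0.93 to 0.24 in ND-20L, -0.27 to 0.15 in ND-24L, -0.081 to 0.099 in ND-51L2, -0.13 to 0.69 in ATPsynGL and -0.079 to 0.17 in Cox10. The causes were not tested.

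Same-numbered replicates deviated together with r of 0.060, 0.012 and 0.024 over all probe sets, and of 0.37, 0.24 and 0.15 over those with a mean above 6. The labels give no pairing, and the fit reported has none. With the replicate block 9 core subunits were called lower, the 8 and ND-13A (adjusted p = 0.034), with 158 probe sets lower and 279 higher, and the call of vkg was lost.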
